A study of Mus musculus with 9 samples.

Results

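The 48 genes described here act in cholesterol synthesis, in sterol sensing and export, and in the synthesis, uptake, oxidation and storage of fatty acids. They were followed in regulatory T cells (Tregs), the Foxp3-expressing lymphocytes that restrain immune responses. The genes were chosen by symbol, with earlier results of these data known. Of the 48, 47 were rows of the expression table, and 44 had a mean of 10 or more normalized counts over the 9 libraries and were tested among 11357 genes of 23420 in all. The study sequenced RNA of Tregs sorted from mouse tissue, in 3 groups of 3 libraries. The first group was synovial Tregs, from the digested paws of mice with collagen-induced arthritis, an autoimmune joint disease raised by immunization with collagen. The second was node Tregs, sorted from draining lymph nodes of such mice, called arthritic nodes below. The third was node Tregs of mice that received no treatment, called control nodes. Every mouse is labelled WT, and in every group the sort was on YFP from a Foxp3 reporter, so the measured cells are those with an active reporter. Strain and age are not in the labels, nor whether a library pooled animals.

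Cholesterol is built from acetyl-CoA through mevalonate, isoprenoid units, squalene and lanosterol. When membrane sterols run low, SCAP carries SREBP factors out of the endoplasmic reticulum to be cut and released to the nucleus, where they switch on sterol and fatty acid genes; INSIG proteins hold the complex back when sterols are plentiful. Fatty acids that enter a cell or are made in it are bound to CoA, lengthened and desaturated, burned in mitochondria, or joined to glycerol as triglyceride and kept in lipid droplets. In mouse Tregs the mevalonate pathway is known to be needed for suppressive function.

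Values are normalized counts, that is, reads per gene divided by a size factor for each library. The libraries held 11300406 to 12855435 reads assigned to genes. The first principal component of all tested genes carried 53.1% of the variance and set the synovial libraries apart. On the second, library 1 of control nodes scored 83.5 against -41.4 to 18.8 in the other 8. The counts against control nodes are therefore also given without it. The 7 Treg markers all passed the filter on low values, and their summed level was 127998 to 138579 in synovial Tregs, 49991 to 55547 in arthritic nodes and 54073 to 59267 in control nodes. Foxp3, the defining transcription factor of Tregs, was read in every library, at 443, 413 and 538 in synovial Tregs, 222, 294 and 291 in arthritic nodes, and 224, 169.7 and 404 in control nodes. Synovial library 3 stood apart in fibroblast markers: the collagen genes Col1a1, Col1a2 and Col3a1 and the matrix genes Dcn and Lum were at 402, 299, 339, 455 and 207 there, against 0 to 38.6 in synovial libraries 1 and 2. The summed level of all 8 fibroblast markers was 3000 to 5684 in synovial Tregs, 3773 to 4561 in arthritic nodes and 4210 to 4387 in control nodes, and most of it was Thy1 and Prg4, which were high in every library. Without synovial library 3, 11 members rose and 3 fell over arthritic nodes, Cpt2 and Fabp5 no longer passing, and 13 rose and 4 fell over control nodes (limma). The share of all genes that passed without this library is not reported here.

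The first comparison set the joint against the node within arthritic mice. The largest fold changes were those of the triglyceride enzymes Dgat2 and Dgat1, which rose in synovial Tregs together with the droplet coat protein Plin2. Beside them, 4 cholesterol synthesis genes rose and 1 fell, the fatty acid elongases Elovl5 and Elovl6 rose and the desaturase Scd2 fell, and the mitochondrial oxidation genes Cpt2 and Acadm fell. In all, 16 of the 44 members tested passed an adjusted p of 0.05, which is 36.4%, against 33.8% of all genes tested (limma, Benjamini-Hochberg adjustment over all genes). The members as a whole thus differed about as often as genes at large. Of the 16, 12 rose, 27.3% of the members against 17.9% of all genes, and 4 fell, 9.09% against 15.9%. The members were chosen with earlier results known, so the higher share that rose is not an independent finding. These shares of all genes are also the background for the counts by role group in this comparison given below. The median log2 fold change was 0.18 over the members and 0.00 over all genes tested. Synovial and arthritic node libraries did not overlap for 20 members, or 45.5%, against 48.2% of all genes. With the mouse number of the titles as a block, 14 members rose and 4 fell. This pairs the tissues if a number marks the same animal. The regulator Srebf2 (adjusted p = 0.0317, limma) and the oxidation gene Cpt1a (adjusted p = 0.0368, limma) then passed as well. The share of all genes that passed with the block is not reported here. In bulk RNA, a change in the share of cells that express a gene and a change in RNA per cell cannot be told apart.

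**Figure D1:**
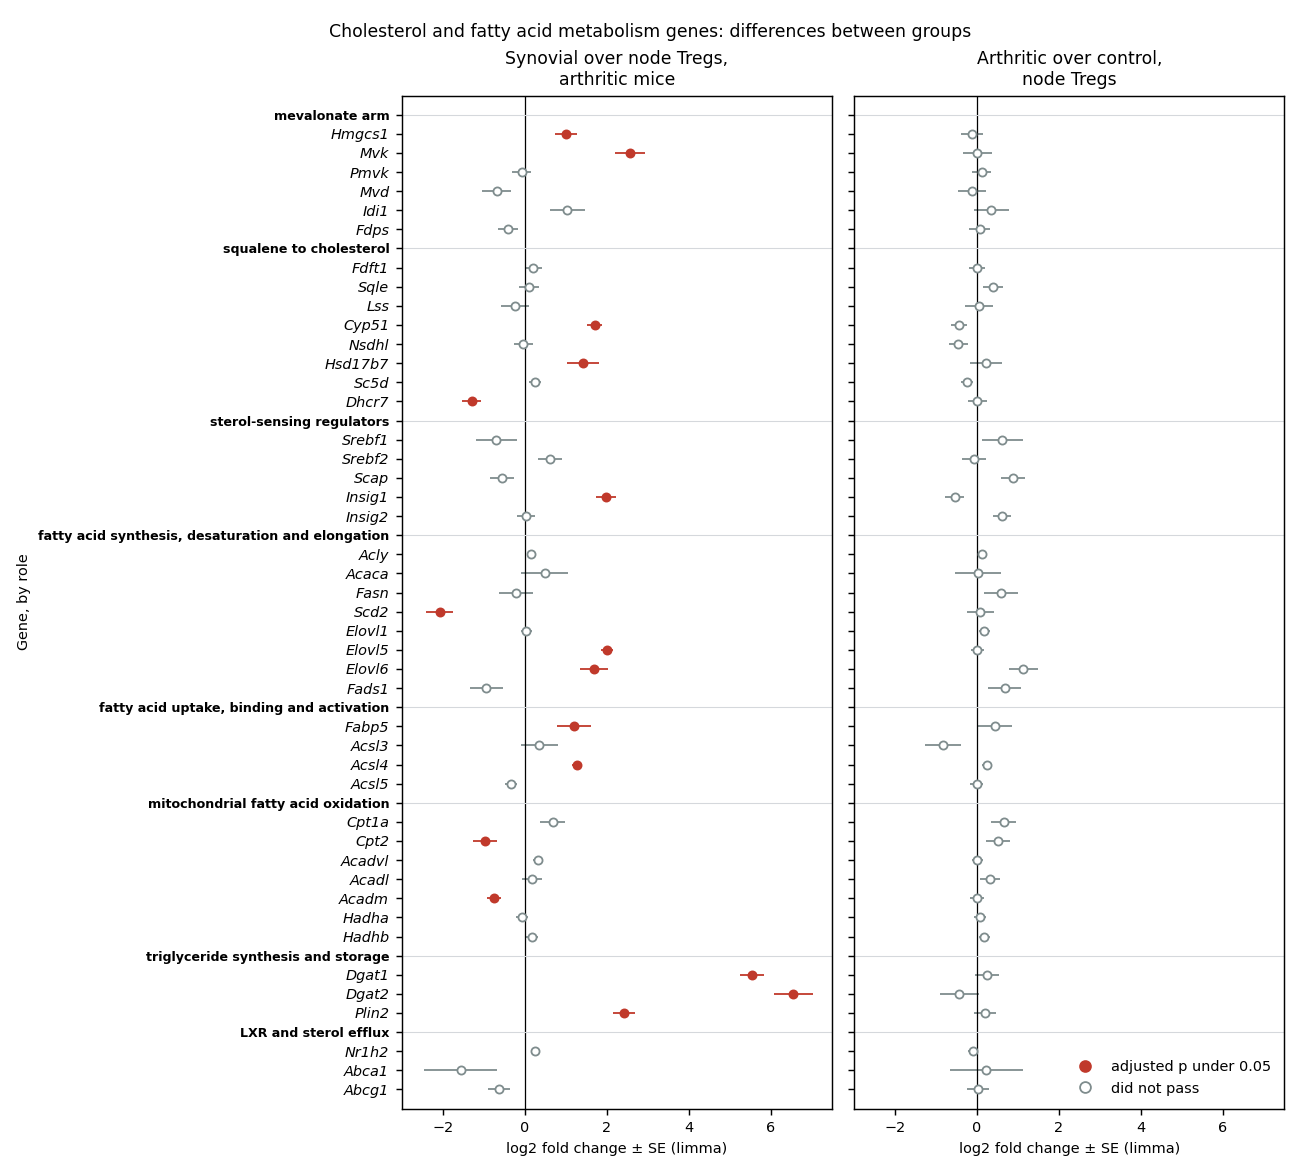
Log2 fold changes of the 44 tested members with their standard errors (x axis, limma), grouped by role (y axis), for synovial over arthritic node Tregs (left) and arthritic over control node Tregs (right). Filled points passed an adjusted p of 0.05: 16 on the left, led by Dgat2 at 6.55 and Dgat1 at 5.54, and 0 on the right.

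Triglyceride synthesis and storage held the 2 members with the largest fold changes, Dgat2 and Dgat1, and all 3 genes of the group rose. Dgat1 (chr15:76502015-76511953, minus strand, GRCm38) encodes one of the enzymes that add the last fatty acid to diacylglycerol to make triglyceride. It was read at 14623, 14532 and 21388 normalized counts in synovial Tregs, against 316, 458 and 307 in arthritic nodes and 186, 299 and 480.2 in control nodes. The lowest synovial library thus stood far above every node library. The mean was 16848 ± 3932 in synovial Tregs and 360.1 ± 84.9 in arthritic nodes (SD, n = 3 each), a ratio of 46.8. The log2 fold change was 5.54 ± 0.29 (SE, limma, adjusted p = 6.28e-08).

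Dgat2 (chr7:99153658-99182719, minus strand, GRCm38) encodes the other enzyme of this step, an unrelated protein that works closely with lipid droplets. Its values were 4561, 5595 and 7220 in synovial Tregs, against 31.3, 61.6 and 109 in arthritic nodes and 39.1, 107 and 125 in control nodes. The groups did not overlap, and the synovial mean was 86.0 times the arthritic node mean. The log2 fold change of Dgat2 was 6.55 ± 0.47 (SE, limma, adjusted p = 7.13e-07). Plin2 coats lipid droplets and is a common marker of them. Its values were 1692, 2129 and 1971 in synovial Tregs, against 402, 495 and 231 in arthritic nodes and 412, 305 and 239 in control nodes, again with no overlap. Plin2 rose by a log2 fold change of 2.42 ± 0.27 (SE, limma, adjusted p = 3.08e-05). None of these 3 genes shares an annotated exon base with another gene.

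Summed over the 3 storage genes, the level was 20876, 22256 and 30579 in the synovial libraries, 749, 1014 and 646 in arthritic nodes, and 636, 711 and 845 in control nodes. The highest sum was in synovial library 3, the one with the fibroblast transcripts. Without it the log2 fold changes over arthritic nodes were 5.36 for Dgat1, 6.38 for Dgat2 and 2.40 for Plin2 (limma, adjusted p = 2.81e-06, 3.34e-05 and 0.000456). Adipocytes and macrophages also express these genes, so markers of both were read in the same libraries. Of 8 adipocyte markers, 0 passed the filter on low values, and their summed level was 1.17 to 17.6 in synovial Tregs, 6.96 to 13.5 in arthritic nodes and 3.01 to 12.8 in control nodes. Lep, Plin1, Retn, Cfd and Adig were at 0 in every synovial library. Lep, Plin1 and Cfd were at 0 in every node library too. The summed level of 9 macrophage and monocyte markers was 79.8 to 319 in synovial Tregs, 63.5 to 453 in arthritic nodes and 106 to 349 in control nodes. Mrc1, Cd163 and Marco were at 0 in every synovial library. Cd163 was at 0 in every node library too, and Marco in all but library 1 of arthritic nodes. Cd68 was at 59.5, 69.3 and 13.5 in synovial Tregs, against 104, 23.1 and 90 in arthritic nodes. Lyz2 was at 14.3, 48.1 and 0, against 190.4, 8.66 and 307. Cd14 of this list was higher in the joint, at 70.5, 196 and 66.3 in synovial Tregs, against 0, 0 and 14.9 in arthritic nodes and 0 in every control node library. Dendritic cell markers summed to 918 to 1078 in synovial Tregs, 27.8 to 82.1 in arthritic nodes and 38.1 to 62.1 in control nodes, with Itgax and Clec9a at 0 in every synovial library. Most of that sum was Xcr1, at 307, 540.1 and 471, and Zbtb46, at 537, 538 and 607 in the synovial libraries. Clec9a was at 0 in every node library too. The part of adipocytes, macrophages, dendritic cells, fibroblasts and cells with Cd14 in these results was not tested.

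Per kilobase of exon, Dgat1 ranked 1 of 47 members in synovial Tregs, at 5513 ± 1287 normalized counts per kilobase (SD, n = 3). It ranked 21 in arthritic nodes, at 118, and 22 in control nodes, at 105. Dgat2 ranked 3 in synovial Tregs, at 1879 per kilobase, 41 in arthritic nodes, at 21.8, and 32 in control nodes, at 29.4. Elovl5 was next to Dgat1 in synovial Tregs, at 4163 per kilobase, and their ranges of 4755 to 6999 and 3310 to 4630 did not overlap. In both node groups Elovl5 ranked 1 and the sterol exporter Abcg1 ranked 2, but their ranges overlapped. These were 940.2 to 1162 and 875 to 1047 in arthritic nodes, and 887 to 1212 and 793 to 1124 in control nodes.

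**Figure D2:**
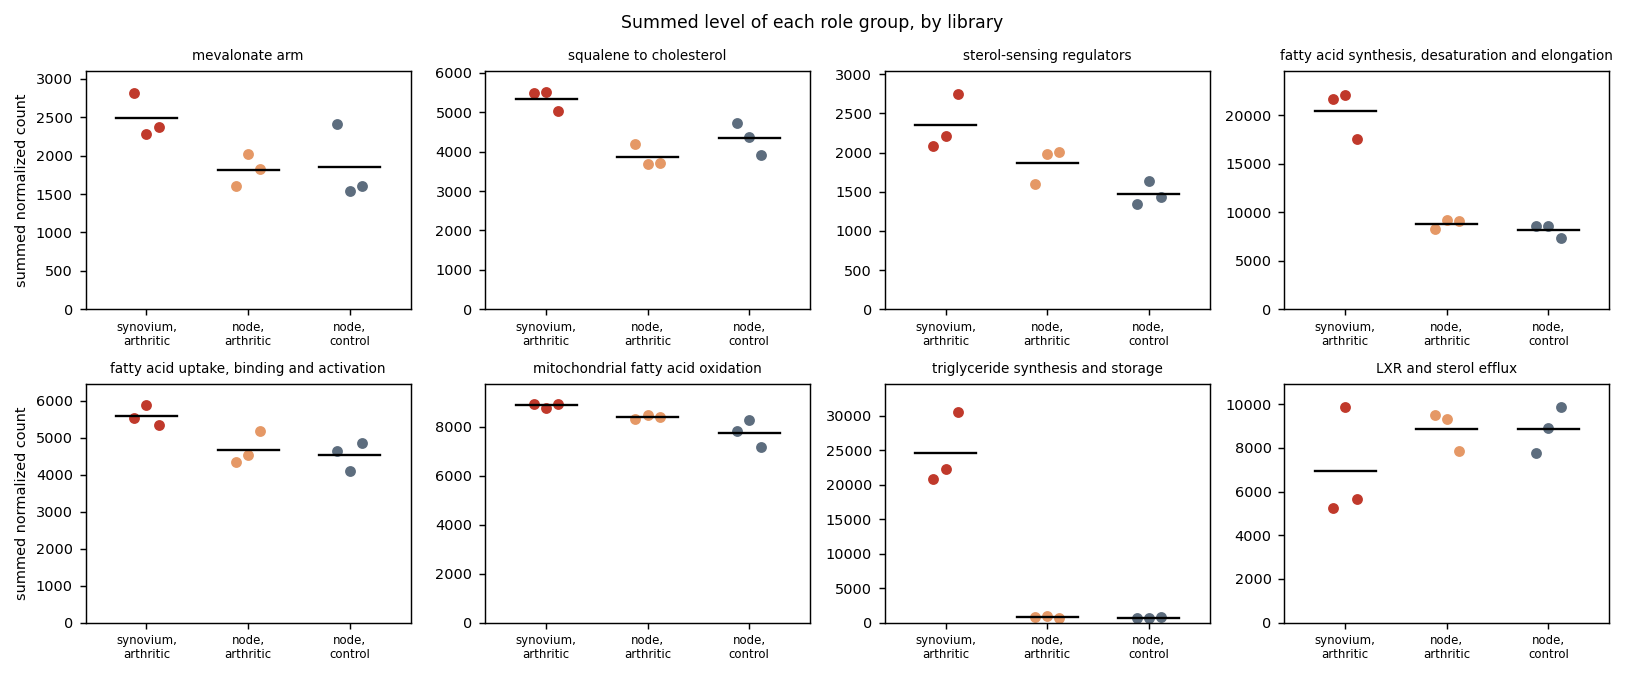
Summed normalized count (y axis, linear from 0) of the members of each of 8 role groups in each library, with synovial Tregs left, arthritic nodes in the middle and control nodes right; bars are means. The storage group runs from 20876 to 30579 in synovial Tregs against 646 to 1014 in arthritic nodes, while oxidation runs from 8765 to 8942 against 8320 to 8479. As a percent of the library's normalized total, oxidation was lower in synovial Tregs, at 0.0614 to 0.0653 against 0.0744 to 0.076.

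The mevalonate arm carries acetyl-CoA to farnesyl diphosphate, the isoprenoid that feeds both sterols and protein prenylation. Of its 6 members, 2 rose in synovial Tregs over arthritic nodes, 0 fell and 4 did not pass, with a median log2 fold change of 0.46. Mvk, mevalonate kinase, was read at 569.7, 444 and 336 in synovial Tregs, against 63.5, 67.3 and 93.5 in arthritic nodes and 106, 58.7 and 62.1 in control nodes. Every synovial library was above every node library, and Mvk rose by a log2 fold change of 2.56 ± 0.36 (SE, limma, adjusted p = 0.000167). Hmgcs1, the synthase that makes HMG-CoA at the head of the pathway, was read at 1071, 782 and 1023 in synovial Tregs, against 403, 554 and 479 in arthritic nodes and 807, 352 and 485 in control nodes. Synovial and arthritic node libraries of Hmgcs1 were apart, while library 1 of control nodes reached above the lowest synovial one. The log2 fold change of Hmgcs1 over arthritic nodes was 1.00 ± 0.27 (SE, limma, adjusted p = 0.012), and without library 1 of arthritic nodes it was 0.88 (adjusted p = 0.0526). Exons of Hmgcs1 overlap those of the antisense gene Gm48342 over 12.1% of their bases, and whether the counting used strand is not given in the sources used here.

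Idi1, the isomerase that balances the isoprenoid units, was read at 202, 168 and 135 in synovial Tregs, against 88.7, 54.8 and 105 in arthritic nodes and 95.3, 55.1 and 46.6 in control nodes. Its libraries did not overlap either, but its log2 fold change of 1.04 ± 0.42 over arthritic nodes did not pass (SE, limma, adjusted p = 0.0718). In the authors' deposited table the log2 fold change of Idi1 was 1.00 with an SE of 0.41 and an adjusted p of 0.0457. Among the members of the mevalonate arm that did not pass, Mvd, which decarboxylates mevalonate diphosphate, was lowest at a log2 fold change of -0.69. Without library 1 of arthritic nodes its log2 fold change was -1.07 (adjusted p = 0.0287, limma), and it was -0.44 without synovial library 1 (adjusted p = 0.411) and also without library 2 of arthritic nodes (adjusted p = 0.432).

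From squalene to cholesterol, 8 of 9 members were rows of the table and were tested. In synovial Tregs over arthritic nodes 2 rose, 1 fell and 5 did not pass, with a median log2 fold change of 0.16. Cyp51, the enzyme that demethylates lanosterol, was read at 1796, 2015 and 1606 in synovial Tregs, against 667, 507 and 504 in arthritic nodes and 993, 699.6 and 612 in control nodes. The synovial libraries stood above all node libraries, and Cyp51 rose by a log2 fold change of 1.70 ± 0.19 (SE, limma, adjusted p = 3.32e-05). Hsd17b7, a reductase of sterol intermediates, was read at 516, 274 and 344 in synovial Tregs, against 181, 100.1 and 142 in arthritic nodes and 194, 114 and 74.9 in control nodes. The groups were apart, with synovial library 1 the highest. Hsd17b7 rose by a log2 fold change of 1.41 ± 0.39 (SE, limma, adjusted p = 0.0147). Without synovial library 1 it was 1.16 (adjusted p = 0.0738), and without library 2 of arthritic nodes 1.18 (adjusted p = 0.0631).

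Dhcr7, the reductase that makes cholesterol from its immediate precursor, went the other way. It was read at 205, 203 and 201 in synovial Tregs, against 519, 651 and 371 in arthritic nodes and 522, 437 and 544 in control nodes. The synovial libraries lay within a few counts of each other and below every node library. Dhcr7 fell by a log2 fold change of -1.30 ± 0.23 (SE, limma, adjusted p = 0.000832). The members that did not pass included Lss, which closes squalene epoxide to lanosterol, at a log2 fold change of -0.25, and Sc5d, a sterol desaturase, at 0.25. Msmo1, a sterol oxidase, was not a row under that symbol. A row under its older symbol, Sc4mol, was read at 976, 618 and 825 in synovial Tregs, against 1244, 628 and 816 in arthritic nodes and 789, 636 and 677 in control nodes, and did not pass (limma, adjusted p = 0.742).

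Among the 5 sterol-sensing regulators, 1 rose and 4 did not pass. Insig1, which retains SCAP and SREBP in the endoplasmic reticulum and is itself a target of SREBP, was read at 547, 463 and 675 in synovial Tregs, against 162, 134 and 126 in arthritic nodes and 223, 210.3 and 184 in control nodes. The synovial libraries were the highest 3, and Insig1 rose by a log2 fold change of 1.98 ± 0.24 (SE, limma, adjusted p = 5.21e-05). Its relative Insig2 was read at 696, 993 and 797 in synovial Tregs, against 737, 909 and 780.1 in arthritic nodes and 438, 750.2 and 435 in control nodes. The synovial and arthritic node libraries of Insig2 were interleaved, with a log2 fold change of 0.03 ± 0.22 (SE, limma, adjusted p = 0.944). Srebf2 encodes the SREBP that mainly drives sterol genes. It was read at 462, 506 and 816 in synovial Tregs, against 308, 349 and 487 in arthritic nodes and 344, 306 and 571 in control nodes. The libraries overlapped, and the log2 fold change of 0.62 ± 0.29 did not pass (SE, limma, adjusted p = 0.122), though it did with the block given above. Srebf1, the SREBP more tied to fatty acid genes, was read at 174, 65.8 and 289.9 in synovial Tregs, against 155, 293 and 315 in arthritic nodes and 124, 246 and 128 in control nodes. Its groups overlapped widely, and it did not pass (limma, adjusted p = 0.318). Scap was read at 205, 183 and 172 in synovial Tregs, against 240.0, 294 and 294 in arthritic nodes and 219.8, 126 and 119 in control nodes. Its synovial libraries lay below those of arthritic nodes, but the log2 fold change of -0.56 ± 0.29 did not pass (SE, limma, adjusted p = 0.162).

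The promoters of these genes were searched for letters that sterol factors and their partners read. SREBP binds sterol response elements, and the factor NF-Y, which often works beside it, binds CCAAT boxes. The windows below run from 250 bases before to 50 after the start site of the gene (RefSeq, GRCm38.p6), 5′ to 3′ on the gene's strand, for 4 of the 5 sterol genes that rose and for Dhcr7, which fell. Capitals mark CCAAT boxes on either strand, so that a box on the opposite strand reads ATTGG, and in Hmgcs1 also the sterol response element TCACCCCAC. Dhcr7 has 3 start sites in this annotation. The window shown is the only one of them that holds a CCAAT box.
Hmgcs1 (chr13:119690101-119690400, plus strand): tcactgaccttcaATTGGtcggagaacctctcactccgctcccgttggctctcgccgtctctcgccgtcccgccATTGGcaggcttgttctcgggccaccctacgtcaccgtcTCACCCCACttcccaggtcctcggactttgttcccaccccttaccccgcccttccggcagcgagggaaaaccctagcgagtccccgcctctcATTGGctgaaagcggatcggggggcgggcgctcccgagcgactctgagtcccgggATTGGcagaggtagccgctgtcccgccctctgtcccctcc
Mvk (chr5:114444019-114444318, plus strand): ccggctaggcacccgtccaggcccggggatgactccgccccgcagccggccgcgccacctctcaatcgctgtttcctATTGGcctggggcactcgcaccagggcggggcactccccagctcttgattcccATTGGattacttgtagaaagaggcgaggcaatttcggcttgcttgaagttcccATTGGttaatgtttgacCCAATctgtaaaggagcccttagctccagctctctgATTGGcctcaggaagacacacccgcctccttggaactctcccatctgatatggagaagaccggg
Cyp51 (chr5:4104648-4104947, minus strand): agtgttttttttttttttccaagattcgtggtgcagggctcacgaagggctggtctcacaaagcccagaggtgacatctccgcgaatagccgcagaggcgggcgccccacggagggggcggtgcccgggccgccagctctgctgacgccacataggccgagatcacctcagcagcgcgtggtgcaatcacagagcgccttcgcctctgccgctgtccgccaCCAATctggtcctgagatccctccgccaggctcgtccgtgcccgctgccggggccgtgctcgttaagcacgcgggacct
Insig1 (chr5:28071162-28071461, plus strand): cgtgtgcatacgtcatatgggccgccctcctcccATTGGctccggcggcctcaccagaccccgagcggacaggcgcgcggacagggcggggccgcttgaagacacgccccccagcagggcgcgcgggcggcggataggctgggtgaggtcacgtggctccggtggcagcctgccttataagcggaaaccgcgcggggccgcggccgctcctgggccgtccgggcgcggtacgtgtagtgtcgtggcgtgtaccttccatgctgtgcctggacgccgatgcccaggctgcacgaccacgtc
Dhcr7 (chr7:143829964-143830263, plus strand): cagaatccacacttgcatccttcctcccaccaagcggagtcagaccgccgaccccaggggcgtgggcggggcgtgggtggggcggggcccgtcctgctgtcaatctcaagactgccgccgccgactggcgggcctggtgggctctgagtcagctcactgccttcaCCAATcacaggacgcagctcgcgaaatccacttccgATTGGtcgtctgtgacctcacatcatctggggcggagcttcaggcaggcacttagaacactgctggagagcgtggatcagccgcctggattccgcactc

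In these windows Hmgcs1 held 4 CCAAT boxes and a sterol response element whose first base lies at -137 from the start site. Mvk held 5 CCAAT boxes, Cyp51 and Insig1 held 1 each, and the Dhcr7 window shown held 2. Promoter sequences matched 38 of the 48 members by symbol, 17 of them sterol genes. A gene with several start sites was counted if any of its windows held the letters searched. A CCAAT box, searched on both strands, was in 16 of these 17 and in 25 of the 38 members, against 41.1% of 27025 genes with a window and 43.4% of the 8537 tested genes with one. It was in all 6 sterol genes with a window that changed and in 9 of the 10 that were tested and did not pass, the exception being Scap. The sterol response element TCACNCCAC was in 1 of the 38 members, Hmgcs1, against 1.44% of all genes and 1.36% of tested genes. Only this exact pattern was searched, so elements with other letters were neither marked nor counted. The E-box CACGTG, another element that SREBP factors can bind, was in 8 of the 38, against 8.09% of all genes and 12.0% of tested genes. No marked match overlaps another in the windows shown, and a match describes the sequence only.

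Fatty acid synthesis, desaturation and elongation had 8 tested members, of which 2 rose, 1 fell and 5 did not pass in synovial Tregs over arthritic nodes. Elovl5 lengthens polyunsaturated fatty acids. It was read at 16027, 16307 and 11656 in synovial Tregs, against 3312, 4094 and 3494 in arthritic nodes and 3489, 4269 and 3124 in control nodes. The groups were far apart, with 14663 ± 2608 in synovial Tregs and 3633 ± 409 in arthritic nodes (SD, n = 3 each), and Elovl5 rose by a log2 fold change of 2.00 ± 0.15 (SE, limma, adjusted p = 1.14e-06). Elovl6, which lengthens palmitate to stearate, was read at 923, 1153 and 678 in synovial Tregs, against 379, 247 and 228 in arthritic nodes and 110.4, 215 and 84 in control nodes. The 3 groups were ordered synovium, arthritic node, control node with no overlap between any of them. Elovl6 rose over arthritic nodes by a log2 fold change of 1.69 ± 0.35 (SE, limma, adjusted p = 0.00257).

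Scd2, a desaturase that makes monounsaturated fatty acids, fell. Scd2 had 104, 69.3 and 147 in synovial Tregs, against 495, 305 and 538 in arthritic nodes and 546, 348 and 363 in control nodes, with no overlap. The log2 fold change of Scd2 was -2.08 ± 0.33 (SE, limma, adjusted p = 0.00042). Its close copy Scd1 was at 0 to 7.87 in all 9 libraries, below the filter, and how the counting treated reads that match both copies is not given in the sources used here. Fads2, a desaturase of polyunsaturated fatty acids, was also below the filter, at 0 to 4.56. The enzymes that build the fatty acid chain itself, Acly, Acaca and Fasn, did not pass. Acaca, acetyl-CoA carboxylase, was read at 35.3, 70.5 and 70.8 in synovial Tregs, against 62.6, 22.1 and 45.4 in arthritic nodes and 25.1, 46 and 52 in control nodes, and its groups overlapped. Of the group's members that did not pass, Fads1, a desaturase that acts beside Fads2, had the largest fold change, at -0.94 on the log2 scale. The summed level of this role group without Elovl5 was 5654, 5728 and 5888 in synovial Tregs, against 4966, 5070 and 5562 in arthritic nodes and 5062, 4351 and 4213 in control nodes. Normalized totals were larger in the synovial libraries, at 13695934, 14287247 and 13794929, against 11179445, 11395797 and 11050277 in arthritic nodes. As a percent of that total the order turned around. The sum was 0.0413, 0.0401 and 0.0427 in synovial Tregs, against 0.0444, 0.0445 and 0.0503 in arthritic nodes.

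**Figure D3:**
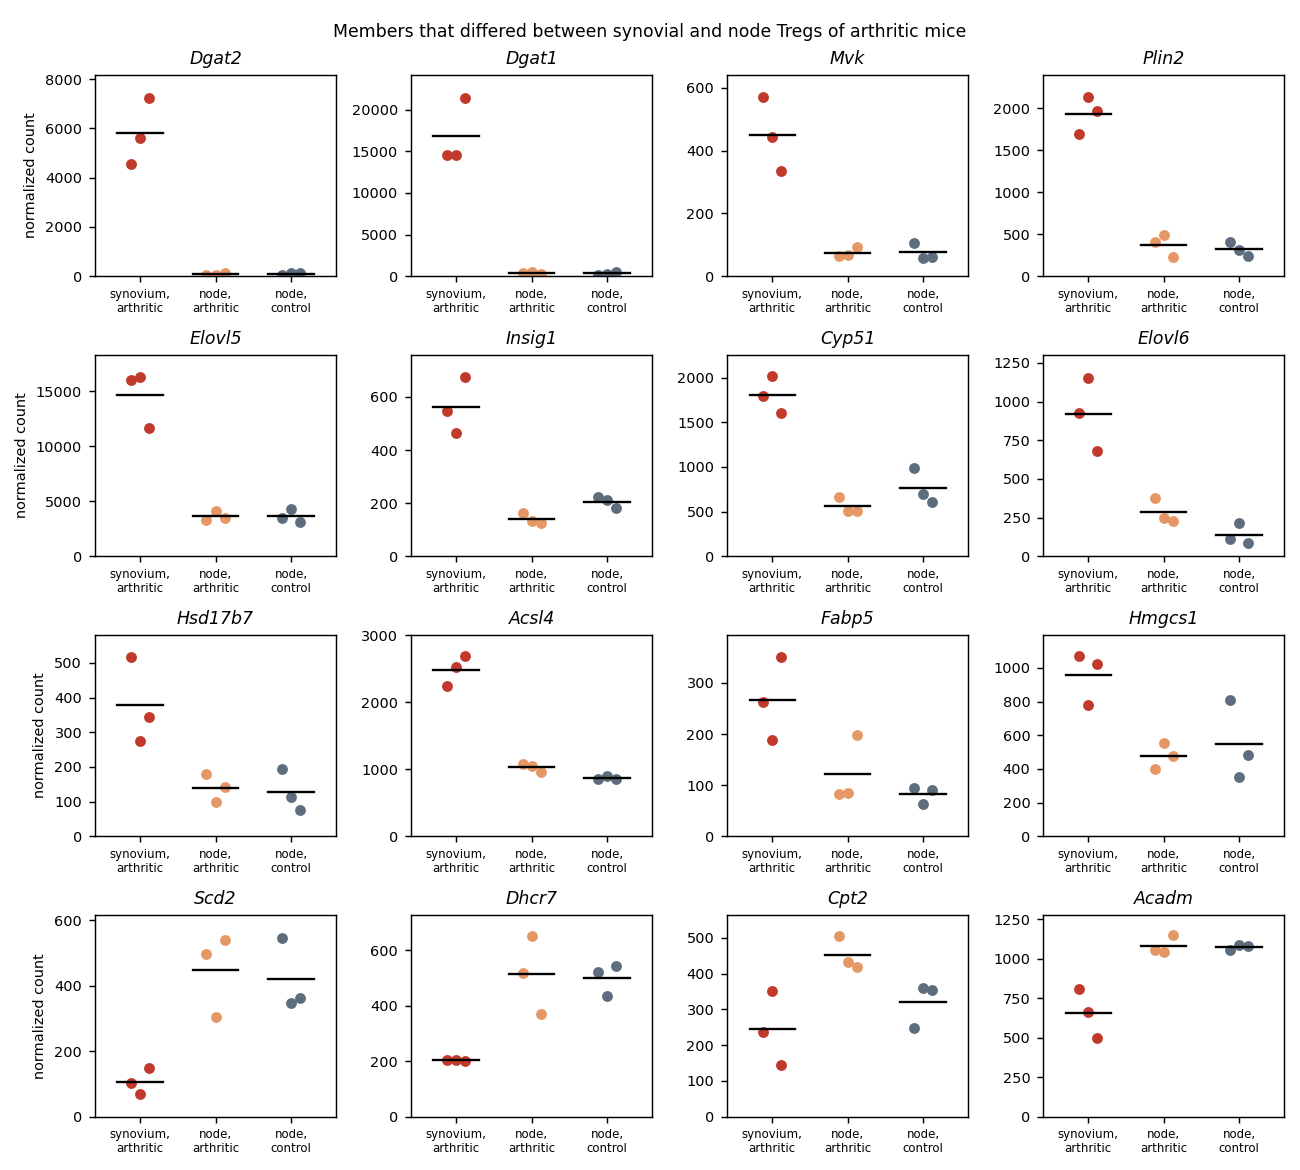
Normalized count (y axis, linear from 0) in each library for the 16 members that passed an adjusted p of 0.05 between synovial and arthritic node Tregs, with synovial libraries left, arthritic nodes in the middle, control nodes right, and bars at the means. The top 3 rows rise in synovial Tregs, led by Dgat2 and Dgat1, and the bottom row holds the 4 that fell, Scd2, Dhcr7, Cpt2 and Acadm.

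Fatty acid uptake, binding and activation had 4 tested members, of which 2 rose. Acsl4 joins CoA to polyunsaturated fatty acids such as arachidonate. Acsl4 had 2240, 2523 and 2691 in synovial Tregs, against 1076, 1054 and 964 in arthritic nodes and 849, 894 and 857 in control nodes. The 3 groups of Acsl4 did not overlap, and it rose over arthritic nodes by a log2 fold change of 1.27 ± 0.12 (SE, limma, adjusted p = 7.85e-06). Fabp5, a cytosolic fatty acid carrier, was read at 263, 188 and 351 in synovial Tregs, against 83.5, 85.6 and 197 in arthritic nodes and 95.3, 64.1 and 91.3 in control nodes. Library 3 of arthritic nodes reached above synovial library 2, so the groups overlapped. Fabp5 rose by a log2 fold change of 1.20 ± 0.41 (SE, limma, adjusted p = 0.0379), but its adjusted p was 0.0587 with edgeR. Without synovial library 1, synovial library 3, arthritic node library 1 or arthritic node library 2 it was 0.0947, 0.138, 0.133 or 0.126 in that order (limma). The scavenger receptor Cd36, which takes up fatty acids at the surface of macrophages and adipocytes, was read in synovial library 3 at 15.7 and in arthritic node library 3 at 16.6, and was at 0 in the other 7. Acsl5, a mitochondrial acyl-CoA synthetase, did not pass at a log2 fold change of -0.34 and passed with quantile normalization at -0.59 (adjusted p = 0.00883, limma).

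Mitochondrial oxidation of fatty acids had 7 tested members, of which 0 rose and 2 fell, with a median log2 fold change of 0.17. Acadm, the dehydrogenase for medium chains, was read at 811, 659.9 and 498 in synovial Tregs, against 1056, 1042 and 1150 in arthritic nodes and 1058, 1085 and 1080 in control nodes. All synovial libraries were below all node libraries, and Acadm fell by a log2 fold change of -0.75 ± 0.17 (SE, limma, adjusted p = 0.00478). Cpt2, which releases acyl-CoA inside the mitochondrion, was read at 238, 351 and 144 in synovial Tregs, against 504, 434 and 418 in arthritic nodes and 248, 361 and 355 in control nodes. It was apart from arthritic nodes but overlapped control nodes. Cpt2 fell over arthritic nodes by a log2 fold change of -0.97 ± 0.30 (SE, limma, adjusted p = 0.0263). Its adjusted p was 0.0577 without synovial library 1, 0.0881 without synovial library 3, and 0.0903, 0.0616 or 0.0524 without arthritic node library 1, 2 or 3 (limma).

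Cpt1a, the gate for long-chain fatty acids into mitochondria, was read at 628, 665 and 737 in synovial Tregs, against 292, 575 and 444 in arthritic nodes and 209, 424 and 215 in control nodes. Synovial libraries were the highest 3, while the arthritic node libraries were spread widely. The log2 fold change of 0.68 ± 0.30 over arthritic nodes did not pass (SE, limma, adjusted p = 0.103), though it did with the block given above. Acadvl, the dehydrogenase for very long chains, did not pass, at 3076, 2798 and 2976 in synovial Tregs against 2472, 2336 and 2290 in arthritic nodes. In the authors' deposited table the log2 fold change of Acadvl was 0.30 with an SE of 0.12 and an adjusted p of 0.0499. Its exons share 42.9% of their bases with Dvl2 on the other strand.

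LXR receptors sense oxidized sterols and switch on exporters. Of Nr1h2, which encodes an LXR, and the exporters Abca1 and Abcg1, 0 passed in synovial Tregs over arthritic nodes. Abcg1 was read at 3335, 8019 and 3503 in synovial Tregs, against 7640, 7188 and 6389 in arthritic nodes and 5784, 7007 and 8204 in control nodes. Synovial library 2 lay above all arthritic node libraries and the other 2 synovial libraries lay below every node library. Abcg1 had a log2 fold change of -0.63 ± 0.27 (SE, limma, adjusted p = 0.0854), and of -1.04 without synovial library 2 (adjusted p = 0.000226). Abca1 was spread even more widely, at 118, 11.7 and 121 in synovial Tregs, against 320.0, 324 and 45.4 in arthritic nodes and 231, 135 and 94 in control nodes. Its log2 fold change was -1.57 ± 0.90 (SE, limma, adjusted p = 0.204), and -2.50 without arthritic node library 3 (adjusted p = 0.0466), but -0.49 without synovial library 2 (adjusted p = 0.668).

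**Figure D4:**
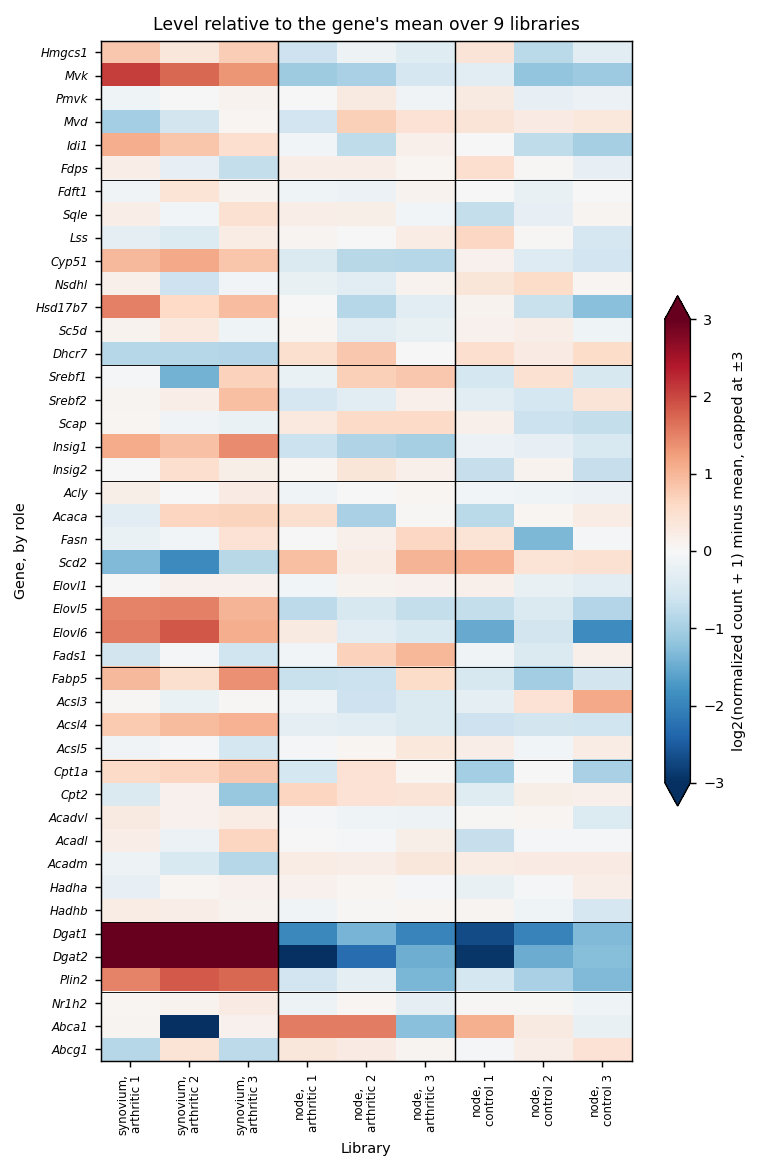
Log2(normalized count + 1) of each tested member (rows, by role) in each of the 9 libraries (columns, synovial left, arthritic node in the middle, control node right), minus the member's mean over the 9; red is above and blue below the mean, capped at 3 in either direction. Dgat1 and Dgat2 are above the cap in all 3 synovial libraries, and Abca1 and Abcg1 differ between synovial library 2 and the other synovial libraries.

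The authors' deposited table of synovial over arthritic node Tregs held 18 members with an adjusted p under 0.05, of which 14 were higher and 4 lower. All 16 members that limma called were among them, with the same sign in 16. The other 2 were Idi1 and Acadvl. The share of all genes that passed in the authors' table is not reported here. Both results rest on the same reads, so the shared calls are not independent support.

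The second comparison asked whether arthritis was accompanied by a difference in node Tregs, with arthritic set against control nodes. No cholesterol or fatty acid gene passed: 0 of 44 members, against 0.343% of all genes tested, or 39 genes (limma). With edgeR and with DESeq2 the count was also 0, and at an unadjusted p under 0.05 it was 5 members with limma, or 11.4%, against 9.08% of all genes. The median log2 fold change was 0.08 over the members and 0.01 over all genes tested. Libraries did not overlap for 6 members, 13.6% against 14.9% of all genes, namely Scap, Elovl6, Acsl4, Cpt2, Acadl and Insig1. The 3 storage genes overlapped between arthritic and control nodes, with log2 fold changes of 0.24 ± 0.29 for Dgat1, -0.43 ± 0.47 for Dgat2 and 0.20 ± 0.27 for Plin2 (SE, limma).

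The largest fold change over control nodes was that of Elovl6, at 285 ± 82.3 in arthritic nodes and 136 ± 69.2 in control nodes (SD, n = 3 each). Its log2 fold change of 1.13 ± 0.35 did not pass (SE, limma, adjusted p = 0.3). Scap was 276 ± 31.4 in arthritic nodes and 155 ± 56.3 in control nodes (SD, n = 3 each), with a log2 fold change of 0.88 ± 0.29 that did not pass (SE, limma). Insig1 averaged 140.4 ± 18.9 in arthritic nodes and 206 ± 20.1 in control nodes (SD, n = 3 each), and its log2 fold change of -0.55 ± 0.24 did not pass either (SE, limma). Insig2 had 0.62 ± 0.22 and Cyp51 -0.44 ± 0.19 on the same scale (SE, limma), also without passing. Without library 1 of control nodes the log2 fold change was -0.24 for Cyp51 (limma, adjusted p = 0.871) and 1.16 for Scap (adjusted p = 0.163), and the count of members that passed stayed at 0. A p that misses the threshold does not show that the groups were alike: the 95% interval of the Dgat1 difference ran from -0.39 to 0.88 on the log2 scale, and that of Dgat2 from -1.46 to 0.59.

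The third comparison set synovial Tregs against control node Tregs, which differ in both tissue and disease. It shares its synovial libraries with the first comparison, so the 2 are not independent. The limit from choosing the members with earlier results known holds here too. Of the 44 members, 18 passed, or 40.9%, against 40.1% of all genes tested (limma). Among them 15 rose, 34.1% against 21.6% of all genes, and 3 fell, 6.82% against 18.5%. The count was 17 with edgeR and 19 with DESeq2. Without library 1 of control nodes it was again 18, with 15 higher and 3 lower; 17 were shared, Hadhb, a subunit of the mitochondrial oxidation complex, joined and Insig2 no longer passed. Without synovial library 2, 16 rose and 5 fell, Abcg1 and Acsl5 being the added ones among those that fell. The shares of all genes that passed in these alternative fits are not reported here.

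Against control nodes the storage genes gave log2 fold changes of 5.79 ± 0.29 for Dgat1, 6.12 ± 0.47 for Dgat2 and 2.62 ± 0.27 for Plin2 (SE, limma, adjusted p = 2.92e-08, 9.53e-07 and 1.21e-05). The elongase Elovl6 rose by 2.82 ± 0.35 on the log2 scale (SE, limma, adjusted p = 4.63e-05), and Elovl5 by 2.01 ± 0.15 (adjusted p = 8.55e-07). Cpt1a rose by a log2 fold change of 1.33 ± 0.30 (SE, limma, adjusted p = 0.00391). Idi1 rose by a log2 fold change of 1.39 ± 0.42 (SE, limma, adjusted p = 0.0184); without synovial library 1 its adjusted p was 0.0723, and without control node library 2 or 3 it was 0.0522 or 0.0581. Hmgcs1 rose by a log2 fold change of 0.88 ± 0.27 (SE, limma, adjusted p = 0.0203), and its adjusted p was 0.0738 or 0.0656 without synovial library 1 or 3, and 0.0846 or 0.0545 without control node library 2 or 3. Insig2 rose by a log2 fold change of 0.65 ± 0.22 (SE, limma, adjusted p = 0.0352), but its adjusted p was 0.0672 with edgeR. It was also 0.121 or 0.0687 without synovial library 2 or 3, and 0.121 or 0.117 without control node library 1 or 3. The 3 that fell were Scd2 at a log2 fold change of -2.00 ± 0.33, Dhcr7 at -1.29 ± 0.23 and Acadm at -0.74 ± 0.17 (SE, limma, adjusted p = 0.00045, 0.000702 and 0.00436).

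Other genes of the same pathways were read from 5 lists of 109 genes, of which 65 were tested. In synovial Tregs over arthritic nodes 13 rose, 6 fell and 46 did not pass, with a median log2 fold change of -0.06. Of all genes tested 33.8% passed, 17.9% rising and 15.9% falling (limma). The number that rose was 8 without synovial library 2. Of 16 triglyceride and lipid droplet genes, 4 rose and 3 fell. Hilpda, a droplet protein that inhibits the lipase ATGL, was read at 4481, 3892 and 5222 in synovial Tregs, against 311, 376 and 259 in arthritic nodes and 320, 477 and 247 in control nodes. It was far above every node library in the joint, and rose by a log2 fold change of 3.85 ± 0.23 over arthritic nodes (SE, limma, adjusted p = 1.66e-07). G0s2, another inhibitor of that lipase, had no read in any synovial library, against 6.09, 41.4 and 48.9 in arthritic nodes and 29.1, 46.9 and 48.4 in control nodes. With 3 reads per library as the floor, the mean of G0s2 was at least 9.45-fold lower in synovial Tregs than in arthritic nodes. Its log2 fold change was -4.62 ± 0.94 (SE, limma, adjusted p = 0.00241). G0s2 reached the filter on low values only through the node libraries, where it was high. Pparg, the nuclear receptor that drives fat storage genes in adipocytes, was read at 224, 161 and 346 in synovial Tregs, against 11.3, 14.4 and 0 in arthritic nodes and 0, 0 and 22.8 in control nodes. The groups were apart, and the log2 fold change of Pparg was 5.34 ± 1.33 (SE, limma, adjusted p = 0.00815), but its adjusted p with DESeq2 was 0.0659. Pparg reached the filter on low values only through the synovial libraries, where it was high, so its call is not independent of the filter.

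In the lists on cholesterol, 2 of 15 genes rose and 0 fell. Soat1, which joins fatty acids to cholesterol for storage, was read at 1852, 2397 and 1669 in synovial Tregs, against 1028, 616 and 845 in arthritic nodes. Its groups did not overlap, and it rose by a log2 fold change of 1.26 ± 0.20 (SE, limma, adjusted p = 0.000369). Stard4, a carrier of cholesterol between membranes, rose by a log2 fold change of 0.67 ± 0.19 (SE, limma, adjusted p = 0.0187), and its adjusted p was 0.0662, 0.0531 or 0.0784 without synovial library 1, synovial library 2 or arthritic node library 2. Of 8 other fatty acid synthesis genes, 2 rose. Mid1ip1, an activator of acetyl-CoA carboxylase, rose by a log2 fold change of 1.43 ± 0.30 (SE, limma, adjusted p = 0.00319). Elovl4, which makes very long chains, was read at 84.8, 89.2 and 3.37 in synovial Tregs, against 0.87, 0 and 0 in arthritic nodes and 0 in every control node library. It passed with all libraries (limma, adjusted p = 0.0198), but its adjusted p was 0.0898, 0.0857 or 0.053 without synovial library 1, synovial library 2 or arthritic node library 2. Elovl4 reached the filter on low values only through the synovial libraries, where it was high, so its call is not independent of the filter.

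Of 7 other uptake and activation genes, 2 rose. Acot7, a thioesterase that frees fatty acids from CoA, was read at 2671, 2704 and 3179 in synovial Tregs, against 934, 1077 and 1336 in arthritic nodes and 580, 531 and 772 in control nodes. The 3 groups of Acot7 did not overlap, and it rose over arthritic nodes by a log2 fold change of 1.36 ± 0.17 (SE, limma, adjusted p = 8.05e-05). Over control nodes, arthritic nodes had a log2 fold change of 0.83 ± 0.17 for Acot7 that did not pass with limma (SE, adjusted p = 0.0903) and passed with DESeq2 (adjusted p = 0.0024). Without control node library 3 the limma adjusted p was 0.0254. Acsbg1, an acyl-CoA synthetase, rose in synovial Tregs over arthritic nodes by a log2 fold change of 0.95 ± 0.13 (SE, limma, adjusted p = 0.000121).

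Of 19 other oxidation genes, 3 rose and 3 fell. Ppargc1b, a coactivator of mitochondrial genes, was read at 11.0, 21.1 and 22.5 in synovial Tregs, against 120.0, 83.7 and 109 in arthritic nodes and 191, 108 and 138 in control nodes. The synovial libraries were all below the node libraries, and Ppargc1b fell by a log2 fold change of -2.50 ± 0.45 (SE, limma, adjusted p = 0.00113). Acaa2, the thiolase of mitochondrial oxidation, fell by a log2 fold change of -0.68 ± 0.14 (SE, limma, adjusted p = 0.00267). Echs1, a hydratase of the same cycle, fell by a log2 fold change of -0.63 ± 0.22 (SE, limma, adjusted p = 0.0406), and its adjusted p was 0.138, 0.144 or 0.101 without synovial library 2, arthritic node library 1 or arthritic node library 3. In arthritic over control nodes, 0 of the 65 passed, against 0.343% of all genes tested (limma). In synovial Tregs over control nodes 12 rose and 9 fell. Of all genes tested 21.6% rose and 18.5% fell there.

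**Figure D5:**
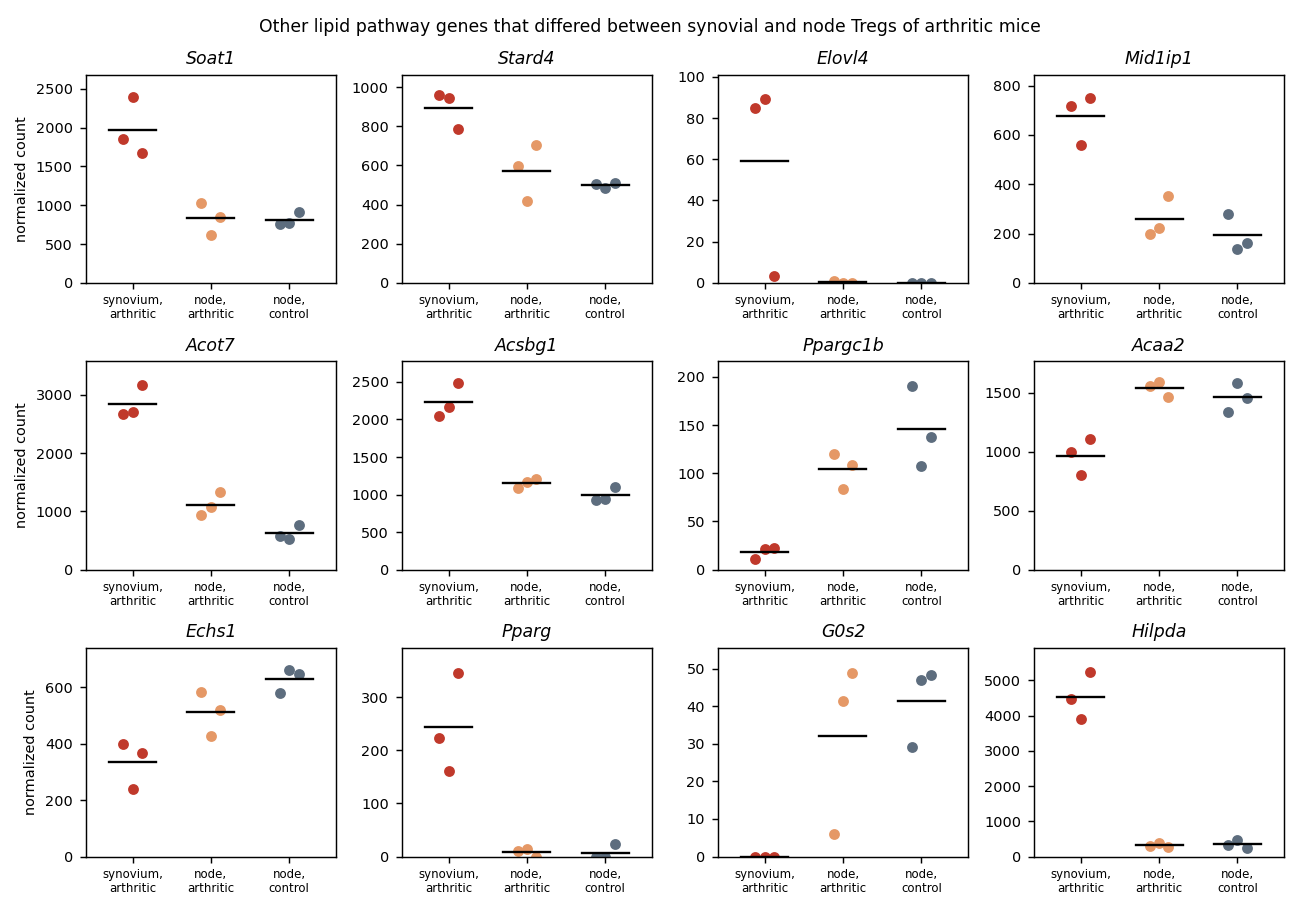
Normalized count (y axis, linear from 0) in each library of 12 further lipid pathway genes named in the text, with synovial libraries left, arthritic nodes in the middle, control nodes right, and bars at the means. Hilpda and Acot7 are above all node libraries in all 3 synovial libraries, G0s2 is at 0 in synovial Tregs, and 1 synovial library of Elovl4 lies at 3.37, close to the node libraries.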

How the data were processed

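RNA of Tregs was sequenced in 9 libraries, and groups came from the sample titles, which number the mice. Nothing beyond those titles says how the replicates were raised, so p-values measure the spread between these libraries. Per the labels' protocols, Trizol was used for the RNA and a directional kit for the libraries. The submitters' processing notes name HISAT2, HTSeq, DESeq2 and the mm10 genome; versions, annotation and strand setting are not given in the sources used here. Values of the deposited table are a normalized signal: reads per gene over the size factor of the library. In each library 100% of the values above 0 were whole multiples, within 0.01, of what 1 read is worth. Reads assigned to genes numbered 11300406 to 12855435 per library. A gene at 0 is set against a floor of 3 reads, worth 2.61 to 3.52. Such floors cover only the error of counting. The authors' deposited comparison gives log2 fold changes, a test score and p-values. A rerun of DESeq2 on the recovered reads gave synovial over arthritic node log2 fold changes within 1.36e-06 of it.

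The test was limma 3.58.1 in R 4.3.3 (eBayes with a mean-variance trend, two-sided) on log2(normalized count + 1), for the 11357 genes that averaged at least 10 normalized counts. All 9 libraries entered each fit, with Benjamini-Hochberg adjustment over all genes tested and a threshold of 0.05. Fold changes are on this log2 scale, which understates the change of low genes. The scripts were tested on simulated data. Alternatives were pseudocounts of 0.5 and 5, no filter or a mean of 50, only the 2 groups compared, TMM and quantile scaling, edgeR 4.0.16 and DESeq2 1.42.0 on recovered reads, a block on the mouse number, and fits without single libraries. The titles give the same mouse numbers to the synovial and the arthritic node libraries, and the block pairs them by that number. The residuals of same-numbered libraries correlated at 0.02, 0.05 and 0.09. In the comparisons with control mice the number is shared by different animals.

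The 48 members, their 8 role groups, the 5 lists of other pathway genes and the marker lists were chosen with earlier results of these data known. Values in every library are given for members that passed in any comparison and for the sterol regulators, with at most 2 other examples per role group, those with the largest fold changes. Of the other pathway genes, at most 3 per list are named, those that passed with the largest fold changes between synovium and arthritic node. Some genes and 1 marker list are not reported here. Positions and exon lengths came from GENCODE vM21 on GRCm38, and promoters from RefSeq on GRCm38.p6.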

Additional observations from a re-analysis of the deposited data

How the results depend on the processing

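The 62 fold changes followed were chosen: those of members that passed, of the other pathway genes named, and of some members that did not pass. Fold changes near 0, such as that of Insig2 between synovial and arthritic node Tregs (0.03), were not followed. A change of sign was thus unlikely from the start. Under 990 alternative values none changed sign. In 942 the side of the threshold was kept, 40 no longer passed and 8 newly passed. The number of members that rose and fell between synovial and arthritic node Tregs was 12 and 4, with 10 to 12 and 3 to 5 when single libraries were left out. It was 13 and 4 with only the 2 groups compared, 11 and 4 with edgeR or with no filter, 12 and 6 with quantile normalization, and 14 and 4 with the replicate block. The block left the counts against control nodes at 15 and 3, and at 0 between the node groups. Among the genes named, it changed only the calls of Srebf2 and Cpt1a; with it 11 other pathway genes rose between synovial and arthritic node Tregs, against 13. In synovial Tregs over control nodes 5 members fell with quantile normalization, and 3 to 5 fell and 13 to 16 rose when single libraries were left out. Quantile normalization moved the median of all genes to -0.12 over arthritic nodes and -0.13 over control nodes. With it, 13 other pathway genes fell in synovial Tregs over arthritic nodes, against 6, and 14 over control nodes, against 9. Between synovial and arthritic node Tregs, 8 to 11 other pathway genes rose when single libraries were left out, against 13. Between arthritic and control nodes 1 other pathway gene, Acot7, rose with DESeq2, and 0 to 1 rose when single libraries were left out. Groups of 3 and values of 2.61 to 3.52 for 3 reads limit what could be read for Scd1, Fads2 and Cd36. For no alternative fit is the share of all genes that passed reported here, so whether these counts follow that share cannot be read. Causes of these shifts were not tested.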

Other observations

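Markers of further cell types were read in the same libraries. Endothelial markers summed to 1478 to 1741 in synovial Tregs, 2311 to 2967 in arthritic nodes and 2806 to 3370 in control nodes, and Kdr and Emcn were at 0 in every synovial library. Nearly all of this sum was Pecam1, at 1475, 1741 and 1469 in synovial Tregs. The highest value of any other endothelial marker was 23.6, for Tek in synovial library 3. Kdr and Emcn were at 0 in every node library too. Neutrophil markers summed to 1.12 to 52.8 in synovial Tregs, 0 to 12.2 in arthritic nodes and 0 to 1 in control nodes. Markers of keratinocytes and sebocytes, skin cells of which the second make much lipid, summed to 48.5 to 99.8 in synovial Tregs, 164 to 229 in arthritic nodes and 181 to 275 in control nodes. Most of this sum was Krt10, at 47.4, 65.8 and 65.2 in synovial Tregs, 166, 158 and 228 in arthritic nodes and 219, 247 and 177 in control nodes.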
